A study of Mus musculus with 6 samples.

Results

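The transcripts described here encode 10 proteins that the liver bud and the yolk sac secrete into the embryonic blood and yolk: Afp, Alb, Ttr, Rbp4, Ambp, Apoa1, Apoa2, Apob, Apom and Trf. They were taken by name from the 22564 features of a foregut expression table, and all 10 were among the 14606 features that passed a filter on low values (mean TPM of 1 or more). Foregut was microdissected from 6 single mouse embryos on a mixed strain background, and each foregut gave 1 RNA library. The 3 controls were heterozygous for both Gli2 and Gli3 and the 3 mutants were homozygous mutant for both, so every embryo carried at least 1 mutant allele of each gene and no wild-type foregut was compared. Gli2 and Gli3 carry the Hedgehog signal into the nucleus, and their alleles were germline mutations rather than deletions limited to 1 cell type. Controls 1, 2 and 3 had 19, 24 and 21 somites, and mutants 1, 2 and 3 had 19, 22 and 21. The pathway check gave Gli1, a direct Hedgehog target, a mutant minus control log2 difference of -3.07 (SE 0.36, limma adjusted p = 0.0722), whereas Gli2 and Gli3 themselves did not pass the test (0.33 and -0.51, adjusted p = 0.999 for both). A whole-gene value can include exons outside the mutated part and so does not check those genotypes.

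As background, hepatic endoderm is specified in the ventral foregut next to the heart and the septum transversum, and its cells are among the first of the embryo proper to transcribe plasma protein genes. Visceral endoderm of the yolk sac transcribes many of the same genes earlier and feeds their products to the embryo. HNF and FOXA transcription factors bind the control regions of these genes in both tissues, and Afp, the main fetal plasma protein, usually appears in hepatoblasts before Alb becomes abundant.

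Values were given as TPM, a length-corrected share of each library scaled to 1000000 in all, so levels of different genes can be compared within a library. TPM keeps no read depth. The depth behind each value is therefore unknown, and the precision rests on 3 embryos per genotype. Genes that all cells use (10 were checked) were above 0 in all 6 libraries, while 4 of the 10 secreted protein genes were listed at 0 in at least 1 library. Features named by a database accession took 23.5% to 43.9% of the TPM of a library.

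In the GRCm38 annotation all 10 are protein-coding genes. Alb (chromosome 5, 90460897 to 90476602) and Afp (chromosome 5, 90490737 to 90508907) are neighbours on the + strand with 14134 bases between them. Apoa1 (46228580 to 46230466) and Trf (103204001 to 103230444) lie on chromosome 9. Apob lies on chromosome 12 (7977648 to 8016835), Apoa2 on chromosome 1 (171225054 to 171226379), Ambp on chromosome 4 (63143275 to 63154799), Apom on chromosome 17 (35128997 to 35132050) and Rbp4 on chromosome 19 (38116629 to 38125281). Trf shares 2108 exonic bases with Gm20425 on its own strand. No feature of that name had a TPM value here, and whether the overlap affected the level of Trf was not tested.

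The sequence just upstream of the start shows what several of the genes have in common. In the 250 bases before the RefSeq start (build GRCm38.p6), 8 of the 10 genes were matched, with 10 start sites. The FOXA core, spelled TGTTTNC and searched on both strands, stood in at least 1 window of each of the 8 genes, or 8 of the 10 windows, against 17.8% of 32817 windows of all genes. With the stricter spellings TGTTTGC and TGTTTAC it stood in 5 and 2 of the windows, against 4.3% and 3.16% of all windows. The HNF1 half-site GTTAAT stood in 2 of the 10 windows (Alb and Afp) against 6.44%, and the HNF4 core CAAAGNNCA in 2 (Afp and Apob) against 5.49%. The letters were chosen after these sequences had been seen, and a match is a description of the window and not a binding site. The bases upstream of 4 genes are shown, with the FOXA core in its TGTTTGC spelling or its reverse complement in capitals and 2 cores in Apoa1. Each is cut off before the annotated first exon. The window of Ambp also held that spelling and is not shown.
Alb, chr5:90460740-90460869, + strand: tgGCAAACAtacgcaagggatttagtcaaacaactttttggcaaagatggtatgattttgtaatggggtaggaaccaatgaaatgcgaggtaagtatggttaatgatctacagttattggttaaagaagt
Afp, chr5:90490584-90490713, + strand: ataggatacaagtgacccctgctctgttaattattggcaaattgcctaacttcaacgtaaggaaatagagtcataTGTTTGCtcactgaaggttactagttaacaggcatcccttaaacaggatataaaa
Apoa1, chr9:46228500-46228579, + strand: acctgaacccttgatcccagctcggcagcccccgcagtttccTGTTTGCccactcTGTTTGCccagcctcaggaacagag
Apob, chr12:7977547-7977647, + strand: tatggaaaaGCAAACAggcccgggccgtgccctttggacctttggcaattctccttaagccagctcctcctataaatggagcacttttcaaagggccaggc
In the Alb and Afp sequences the half-site gttaat begins 32 and 105 bases before the start.

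The level of the group varied between embryos of both genotypes. The TPM of the 10 genes summed to 190, 163 and 10.7 in controls 1, 2 and 3 and to 42.2, 10.6 and 235 in mutants 1, 2 and 3, a 22.2-fold range. Control 3 and mutant 2 each stood lowest in their genotype, and the highest and the lowest sums were both in mutants. Control 3 was the lowest control for 8 of the 10 genes and mutant 2 the lowest mutant for 8, and both held for 7 genes, against 5.57% of all genes tested. Both libraries were singled out by the sum of these same genes, so the count of 7 is a description and the share over all genes is no test of it. In whole tissue, fewer cells of a type and less RNA per cell cannot be told apart.

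**Figure D1:**
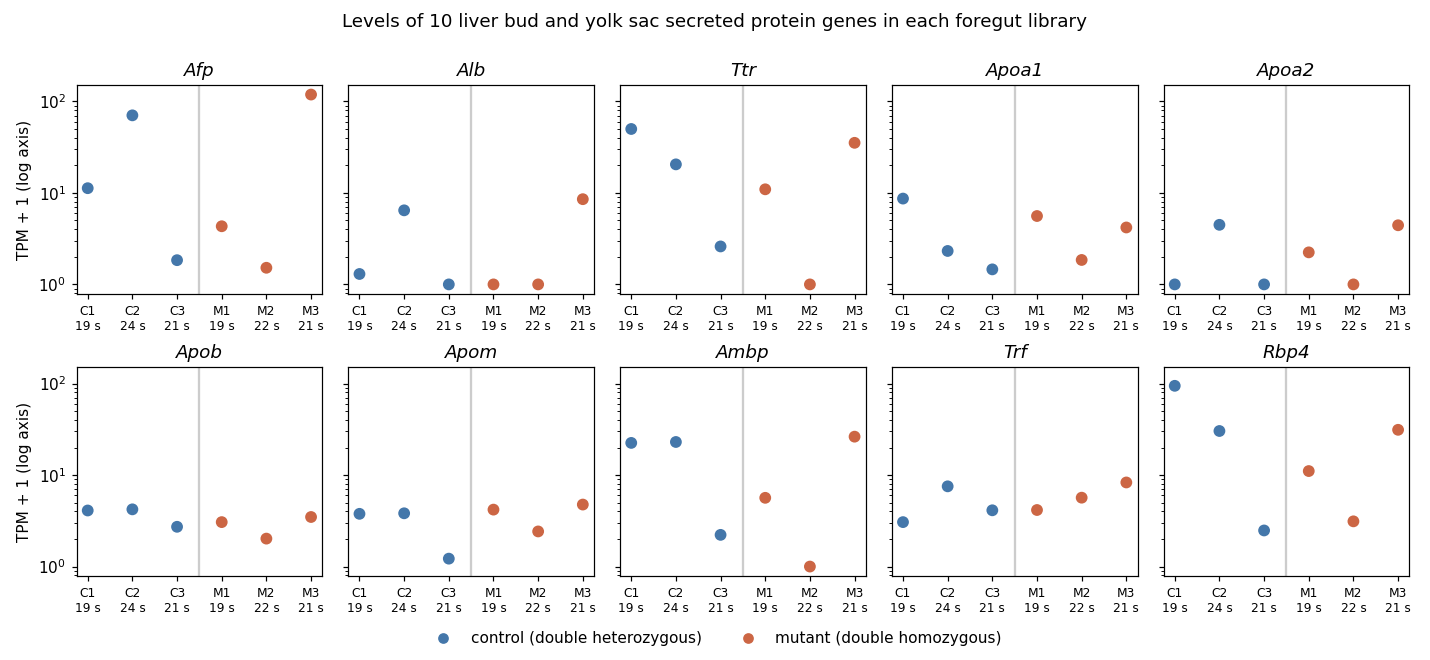
TPM + 1 on a log axis for each of the 10 genes in the 6 libraries (C, control; M, mutant; s, somites), 1 point per embryo. For Afp the points of C3 and M2 (0.84 and 0.52 TPM) lie far below those of C2 and M3 (69.4 and 118 TPM), and the points of both genotypes overlap in all 10 panels.

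Afp (alpha-fetoprotein), the main plasma protein of the fetus, was at 10.3, 69.4 and 0.84 TPM in controls 1, 2 and 3, and mutants 1, 2 and 3 had 3.32, 0.52 and 118 TPM. Control 2 was thus 82.7-fold above control 3, and mutant 3 was 227-fold above mutant 2, while the genotypes overlapped over nearly their whole range. Alb (albumin), its chromosomal neighbour and the main plasma protein after birth, was at 0.30, 5.45 and 0 TPM in controls and at 0, 0 and 7.54 TPM in mutants. Alb was thus above 1 TPM only in control 2 and mutant 3, the libraries in which Afp was highest, and Afp exceeded Alb in all 6.

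Rbp4, which carries retinol in plasma, was at 93.5, 29.3 and 1.48 TPM in controls and at 10.1, 2.12 and 30.2 TPM in mutants. Ttr (transthyretin), which carries thyroid hormone and binds Rbp4, was at 49.0, 19.5 and 1.60 TPM in controls and at 9.95, 0 and 34.3 TPM in mutants. Both were highest of all in control 1, a 19-somite embryo in which Alb was near 0, with Rbp4 63.2-fold and Ttr 30.6-fold above control 3. Ambp, the common precursor of alpha-1-microglobulin and the protease inhibitor bikunin, was at 21.5, 22.0 and 1.22 TPM in controls and at 4.64, 0 and 25.3 TPM in mutants. Ambp thus stood at nearly the same level in controls 1 and 2 and mutant 3.

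The apolipoproteins were low, between 0 and 7.67 TPM. Apoa1, the main protein of high-density lipoprotein, was at 7.67, 1.32 and 0.46 TPM in controls and at 4.59, 0.85 and 3.19 TPM in mutants. It was highest in the 19-somite embryo of each genotype. Apoa2, the second protein of that particle, was at 0, 3.48 and 0 TPM in controls and at 1.24, 0 and 3.43 TPM in mutants, so that it was highest where Afp was highest. Apom, a small lipocalin that carries sphingosine-1-phosphate on the same particle, was at 2.77, 2.82 and 0.22 TPM in controls and at 3.19, 1.42 and 3.76 TPM in mutants. Apob, the structural protein of the lipoproteins that leave liver and yolk sac, was the steadiest of the 10 in both genotypes, at 3.10, 3.22 and 1.72 TPM in controls and 2.06, 1.02 and 2.48 TPM in mutants. Its lowest values still fell in control 3 and mutant 2.

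Trf (transferrin), the plasma iron carrier, was not lowest in control 3 or mutant 2. Controls had 2.06, 6.53 and 3.12 TPM of it, and mutants 3.15, 4.66 and 7.30 TPM. Control 3 and mutant 2 held the middle place of their genotype for Trf, and the 19-somite embryos were the lowest. Among the 45 pairs of the 10 genes, Pearson's r of log2(TPM + 1) over the 6 libraries was at least 0.8 in 11 pairs and below 0 in 2, both with Trf (-0.38 with Apoa1 and -0.0081 with Rbp4). Trf was closer to Alb (r = 0.82), Apoa2 (0.78) and Afp (0.63). The closest pairs were Ttr with Ambp (r = 0.97), Afp with Alb (0.95) and Ttr with Rbp4 (0.95), all over 6 points that share their library with every other gene.

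The make-up of the group differed between libraries as well as its sum. Rbp4 led in control 1 and mutant 1, with 49.2% and 23.8% of the sum. Afp led in control 2 and mutant 3, with 42.6% and 50.1%. The ratio of Afp to Rbp4 was 0.11, 2.37 and 0.57 in controls and 0.33, 0.25 and 3.90 in mutants, so that Afp exceeded Rbp4 only in control 2 and mutant 3. In control 3 and mutant 2, where the sum was near 11 TPM, Trf was the largest member.

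**Figure D2:**
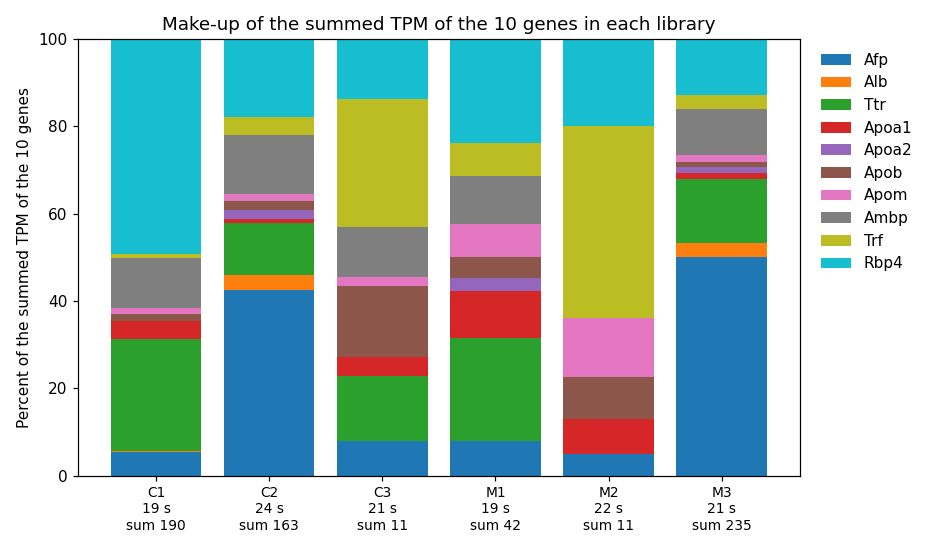
Share of each of the 10 genes in their summed TPM (vertical axis, percent) in the 6 libraries, with the sum in TPM under each bar. Rbp4 takes 49.2% in C1 and Afp 42.6% and 50.1% in C2 and M3, while Trf is the largest part of the small sums in C3 and M2.

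The spread between embryos of 1 genotype was set against that of other genes. The ratio of the highest to the lowest (TPM + 1) of the 3 libraries was at least 4 for 7 of the 10 genes in controls, where 3.98% of all genes tested reached it. In mutants it was reached by 6 of the 10, against 3.96% of all genes, and these 6 were among the 7. The median ratio was 6.19 in controls and 6.49 in mutants for the 10 genes, beside 1.59 and 1.55 over all genes tested. Afp had the largest ratio in both genotypes, 38.3 and 78.2, followed by Rbp4 (38.1) in controls and Ttr (35.3) in mutants. Apob and Trf stayed at or below 2.46 in both. The genes had been chosen as a group known to vary between embryos, so these counts are a description. A ratio over fewer libraries can only stay or fall. In controls 3 of the 10 were wide without control 3 (2.59% of all genes), 6 without control 1 (1.23%) and 5 without control 2 (2.01%). In mutants 3 were wide without mutant 2 (2.36%), 2 without mutant 3 (2.22%) and 6 without mutant 1 (1.53%).

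**Figure D3:**
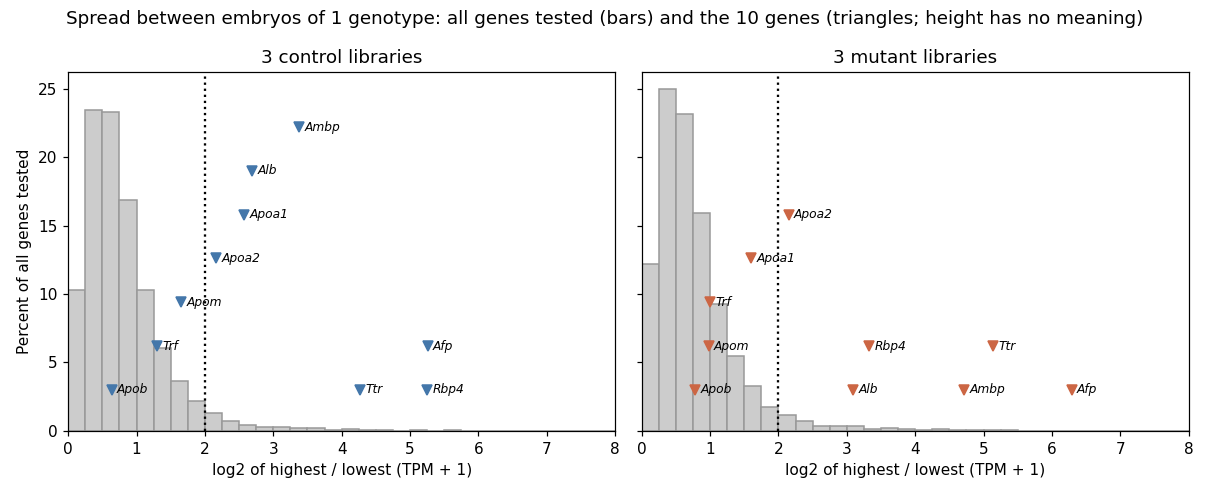
Distribution over all genes tested (grey bars, percent of genes) of the log2 ratio of the highest to the lowest (TPM + 1) among the 3 libraries of a genotype, with the 10 genes as triangles and the limit of 4-fold dotted. In controls 7 and in mutants 6 of the 10 lie right of the dotted line, against 3.98% and 3.96% of all genes.

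Between the genotypes no difference in these genes was detected. In the limma comparison of 3 mutants with 3 controls, none of the 10 genes was called (a call needed an adjusted p up to 0.1 together with a log2 difference of 1 or more in size), against 0.0411% of all genes tested, which is 6 genes. Of the 10 genes, 0 had an unadjusted p under 0.05 (limma), against 597 of the 14606 genes tested, and 0 were called with the replicate block. The genotypes overlapped for all 10. Over all genes tested 8.36% did not overlap, so 0 of the 10 is near that share. The median mutant minus control difference was -0.15 (log2) for the 10 genes and 0.11 for all genes tested, with 5 of the 10 below 0.

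The intervals of these differences were wide for the genes that varied most. For Afp the mean was 26.8 ± 37.2 TPM in controls and 40.6 ± 66.9 TPM in mutants (SD, n = 3), and the log2 difference was -0.30 with a 95% interval from -4.36 to 3.75 (limma). For Rbp4 the means were 41.4 ± 47.2 and 14.1 ± 14.5 TPM, and the log2 difference was -0.91 with an interval from -3.97 to 2.15. Ttr and Ambp stood at -0.93 and -0.98, with intervals that also spanned more than 5 log2 units. For Apob, the steadiest, the means were 2.68 ± 0.83 and 1.85 ± 0.75 TPM, and the interval ran from -1.16 to 0.41 and so held a 2-fold fall but not a 2-fold rise. The limma adjusted p was 0.999 for each of the 10, and a 2-fold change in either direction lay within the interval of 7 genes and in 1 direction within that of the other 3, so that such changes are not excluded by these embryos. Leaving out control 3 and mutant 2 together, a choice made after the data were seen, gave 0 called genes of the 10. That fit called 0 of all 14606 genes tested by genotype, so its count says nothing particular to these genes.

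**Figure D4:**
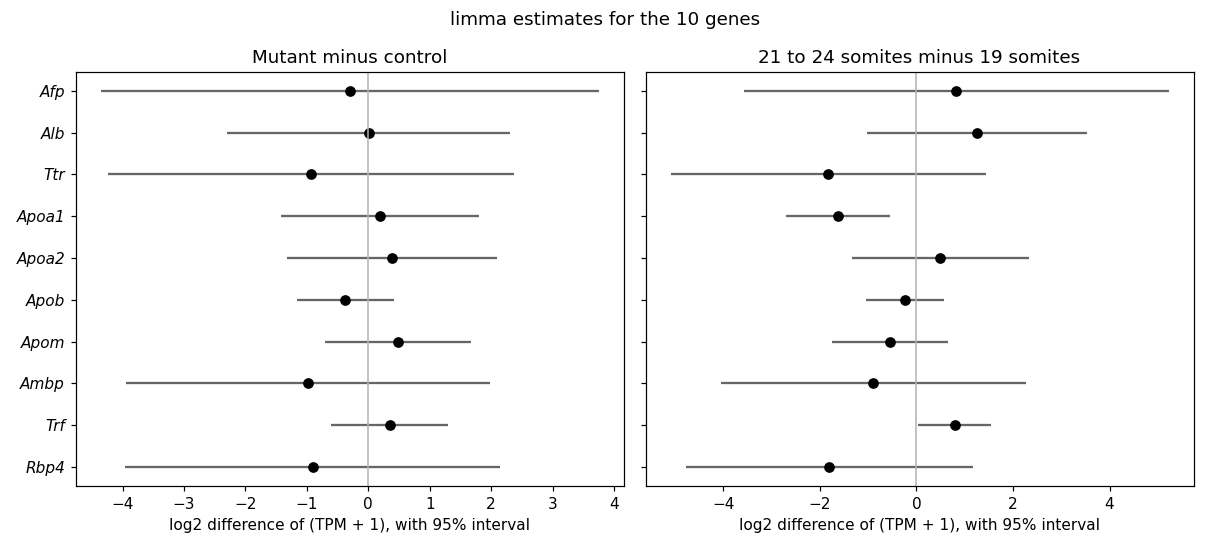
limma estimates (points) with 95% intervals (lines) of the log2 difference of (TPM + 1) for the 10 genes, mutant minus control on the left and 21 to 24 somites minus 19 somites on the right. All 10 intervals on the left cross 0, from -4.36 to 3.75 for Afp. On the right the interval of Apoa1 lies below 0 (-2.69 to -0.55) and that of Trf just above 0 (0.04 to 1.55).

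Somite number was compared next, with genotype in the model. Both 19-somite embryos carry the number 1, so the stage and whatever the number stands for cannot be told apart. Apoa1 was the 1 gene of the 10 called, against 9.41% of all genes tested, a share like that of the group. Its mean was 6.13 TPM at 19 somites and 1.46 TPM at 21 to 24 somites, a log2 difference of -1.62 (SE 0.46, limma adjusted p = 0.0525). The call was lost without control 1, mutant 1 or mutant 2 in turn (adjusted p = 0.461, 0.258 and 0.131), and with a pseudocount of 5, without a filter or with somite number as a linear term. Cardiomyocyte markers moved the same way, with 5 of 8 tested called lower in the later embryos (Myh6, Myl7, Tnnt2, Tnni1 and Nppa). All 9 listed markers together summed to 809, 440 and 292 TPM in controls and 1648, 1206 and 325 TPM in mutants. Their part in the Apoa1 difference was not tested. Trf was higher in the later embryos at an unadjusted p of 0.0418 but was not called (0.79, SE 0.32, limma adjusted p = 0.131). An unadjusted p under 0.05 by somite number (limma) was common, reached by 4956 of the 14606 genes tested and by 2 of the 10 genes.

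Embryos of similar stage did not share a level. Control 3 and mutant 3 both had 21 somites, yet Afp was at 0.84 and 118 TPM and the sum of the 10 genes at 10.7 and 235 TPM. When control 3 and mutant 2 were left out after the data were seen, Afp, Alb, Apoa2 and Trf were called higher in the 2 later embryos left than in the 19-somite embryos (log2 differences of 3.71, 2.70, 1.57 and 1.15), and Apoa1 was no longer called. The same fit called 1690 of all 14606 genes tested. Those libraries were left out for their low levels of these genes, so this is a description of 4 embryos.

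Other secreted plasma proteins, from a list of 26, gave 10 genes that passed the filter. Of these, 5 were lowest in both control 3 and mutant 2, against 5.57% of all genes tested. None was called by limma in the genotype or the somite comparison, with 0 and 1 genes at an unadjusted p under 0.05. Over the 14606 genes tested, 597 and 4956 were under it. Fgb, the beta chain of fibrinogen, was at 0.33, 9.24 and 0 TPM in controls and at 0.43, 0 and 23.8 TPM in mutants. Fgg, the gamma chain, was at 0.66, 4.80 and 0 TPM in controls and 0.22, 0 and 9.06 TPM in mutants, so that both chains were high only in control 2 and mutant 3, as Alb was. Igf2, the fetal growth factor, was at 1403 to 2002 TPM and Vtn (vitronectin) at 15.0 to 20.9 TPM in all 6 libraries. Igf2 was lowest in control 3 (1403 TPM) and mutant 2 (1573 TPM) within this narrow range, and is 1 of the 5. Serpina1a stood at 32.0 to 78.8 TPM and Serpina1b at 0.04 to 17.3 TPM, but these are near-identical copies whose reads may have been divided between them.

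Some hepatic endoderm transcription factors, Hnf4a and Hhex among them, were low in the same embryos as the secreted proteins. Of 16 listed, 12 passed the filter, and 7 of these were lowest in both control 3 and mutant 2, against 5.57% of all genes tested. None was called in either comparison by limma. An unadjusted p under 0.05 (limma) was reached by 1 by genotype and 2 by somite number. Over the 14606 genes tested, 597 and 4956 reached it. Hnf4a, a nuclear receptor needed for hepatocyte differentiation, was at 3.07, 5.35 and 0.40 TPM in controls and at 1.79, 0 and 4.37 TPM in mutants. Hhex, a homeobox factor needed for the liver bud to form, was at 12.5, 11.3 and 3.66 TPM in controls and 9.07, 4.21 and 23.0 TPM in mutants. Both were therefore low in the same embryos as Afp and Rbp4. Onecut1 was at 16.8, 12.5 and 3.79 TPM in controls and 15.3, 3.27 and 12.98 TPM in mutants. Prox1, which marks the early liver and pancreas buds, was also low in control 3 (6.77 TPM) but lowest in mutant 1 (6.57 TPM) among the mutants. Tbx3 differed in pattern, at 11.1, 19.9 and 16.3 TPM in controls and 7.52, 15.5 and 9.42 TPM in mutants, highest of the mutants in mutant 2. Foxa2 was lowest in control 2 (4.22 TPM) among controls and in mutant 2 (3.12 TPM) among mutants. Foxa1, a forkhead factor of the gut endoderm, ranged from 30.4 to 62.0 TPM, and Gata4 and Gata6 from 25.6 to 96.8 and from 29.0 to 47.2 TPM. Within these ranges Foxa1, Gata4 and Gata6 were each lowest in both control 3 and mutant 2, so they are among the 7.

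Genes whose pattern was most like the mean profile of the 10 were sought among 1310 others that ranged over at least 2 log2 units. Hnf4a was the closest (r = 0.98 over 6 libraries), before Serpina1b (0.96), Hhex (0.96), Habp2 (0.95), Snord16a (0.92) and Rgn (0.90), with 2 features named only by a database accession at 0.96 and 0.94. Habp2 encodes a plasma serine protease and Rgn a calcium-binding protein of hepatocytes. Habp2 was at 7.89, 7.26 and 0.71 TPM in controls and 3.43, 0 and 6.21 TPM in mutants. Without control 3 and mutant 2, the libraries farthest from the median, r was 0.92 for Hnf4a, 0.81 for Hhex and 0.75 for Habp2, but 0.45 for Snord16a and 0.56 for Rgn, so that the last pair rests on those libraries. These likenesses are descriptions, over the same libraries that were normalized together.

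The summed markers of the gut tube as a whole ranged less. The 10 gut tube endoderm markers summed to 921, 1048 and 706 TPM in controls and 751, 771 and 962 TPM in mutants, a 1.48-fold range beside the 22.2-fold range of the secreted proteins. The largest part of that sum was Cldn6 (398 to 725 TPM), and single markers ranged more widely, such as Krt8 (22.1 to 98.5 TPM). Nkx2-1 was at 8.41, 19.7 and 11.4 TPM in controls and at 1.27, 2.25 and 2.87 TPM in mutants. Its genotypes thus did not overlap, but it was not called (log2 difference -2.13, limma adjusted p = 0.23). Of the 10 markers, 3 were lowest in both control 3 and mutant 2 (Epcam, Krt18 and Pdx1), against 5.57% of all genes tested. Epcam, a surface protein of all gut epithelium, was at 67.2 to 105 TPM (1.57-fold) and Cdh1 (E-cadherin) at 31.7 to 54.5 TPM (1.72-fold). Pdx1, which marks the pancreas and duodenum next to the liver bud, was at 5.29, 1.65 and 0 TPM in controls and 0.18, 0 and 1.88 TPM in mutants, and so was also at 0 in control 3 and mutant 2. Krt8 and Krt18, the keratins of simple epithelia, were lower in the later embryos (log2 differences of -1.53 and -1.05, limma adjusted p = 0.0103 and 0.0205), and Sox17 was higher (1.14, adjusted p = 0.0235).

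**Figure D5:**
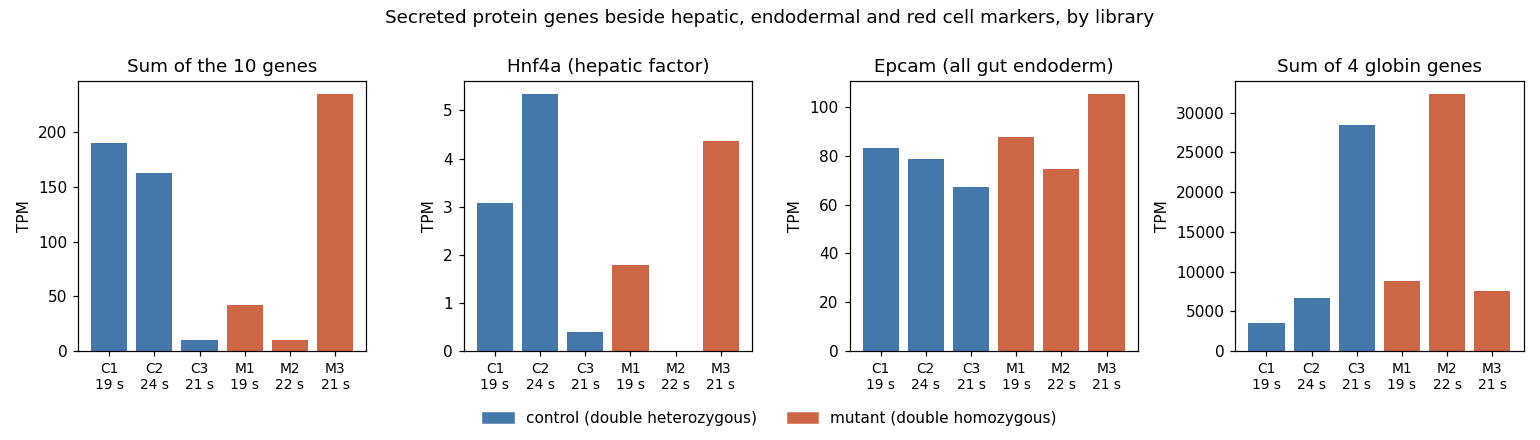
TPM in each of the 6 libraries (bars, linear axes from 0; C, control; M, mutant; s, somites) of the sum of the 10 genes, Hnf4a, Epcam and the sum of 4 globin genes. C3 and M2 have the lowest sums (10.7 and 10.6 TPM) and the lowest Hnf4a (0.40 and 0 TPM) but the highest globin sums (28436 and 32415 TPM), whereas Epcam varies 1.57-fold.

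The libraries low in liver bud transcripts held the most red cell transcripts. All 9 primitive red cell markers tested were highest in control 3 among controls and in mutant 2 among mutants. The 4 globin genes summed to 3541, 6638 and 28436 TPM in controls and 8893, 32415 and 7559 TPM in mutants, which was 0.354% to 3.24% of a library. The profile of the 10 genes and the log2 globin sum had r = -0.87 (Spearman's rho = -0.77) over the 6 libraries, but r = -0.18 without control 3 and mutant 2, so that the relation rests on them. The part of red cell RNA in the low levels was not tested. Mutant 2 also held neural tube transcripts, led by Pax6 (25.5 TPM) and Olig2 (9.23 TPM). The 8 markers summed to 53.4 TPM there, against 1.81 TPM (control 3) to 9.41 TPM in the other 5 libraries. The part of neural tube transcripts in the low values of mutant 2 was not tested.

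Yolk sac markers were listed because the same proteins are made there. Cubn and Amn, which together form the uptake receptor of the visceral endoderm, were at 0.25 to 0.85 TPM and 0 to 0.29 TPM. The 10 yolk sac markers summed to 57.2, 86.2 and 78.8 TPM in controls and 57.9, 121 and 106 TPM in mutants, most of it Dab2 (40.6 to 102 TPM), an endocytic adaptor also made outside the yolk sac. The highest sum was in mutant 2, where the secreted proteins were lowest. Of the 7 markers tested, 0 were lowest in both control 3 and mutant 2, against 5.57% of all genes tested. Whether yolk sac tissue contributed to any library was not tested.

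Markers of septum transversum and mesothelium, the mesoderm that the bud grows into, summed to 72.8, 64.5 and 51.5 TPM in controls and to 159, 158 and 140 TPM in mutants. Upk3b, a uroplakin of the mesothelium, was the 1 of 9 tested that was called by genotype (0.0411% of all genes were), at 3.28, 1.73 and 2.07 TPM in controls and 17.8, 20.1 and 15.6 TPM in mutants (log2 difference 2.51, limma adjusted p = 0.0528). Of the 9, 8 had an unadjusted p under 0.05 by genotype (limma), against 597 of the 14606 genes tested. The median mutant minus control log2 difference of the 9 was 1.47. This list was chosen with earlier results of these data known, and the paper names Wt1, Tbx18 and Lhx2 among the genes raised in these mutants. The count and the median are therefore descriptions, and the share over all genes is no test of them. The sum of these markers was similar in the 3 mutants, although their sums of the 10 secreted protein genes ranged from 10.6 to 235 TPM. Single markers varied more between mutants, such as Tcf21 at 42.9, 22.2 and 15.7 TPM. Of the 9, 1 was lowest in both control 3 and mutant 2, against 5.57% of all genes tested.

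Receptors that take up these proteins, and proteins that load lipid onto them, were listed as well. Of 14, 12 passed the filter, and none was called by limma. An unadjusted p under 0.05 (limma) was reached by 1 by genotype and 2 by somite number, against 597 and 4956 of the 14606 genes tested. None was lowest in both control 3 and mutant 2, against 5.57% of all genes tested. Tfrc, the transferrin receptor, was at 86.2, 108 and 144 TPM in controls and 70.3, 106 and 112 TPM in mutants, far above Trf in each library. Stra6, the receptor for retinol bound to Rbp4, was at 37.1 to 51.1 TPM, while Rbp4 itself ranged from 1.48 to 93.5 TPM. Mttp, which loads lipid onto Apob, was at 1.88 to 5.60 TPM, a level like that of Apob. Lrp2, an endocytic receptor that binds several of these proteins, was at 3.95 to 4.95 TPM in all 6 libraries. Pltp, the phospholipid transfer protein of plasma, was the 1 of the 12 with a wide ratio, in mutants, at 6.56, 15.1 and 9.17 TPM in controls and 2.70, 9.0 and 0.77 TPM in mutants.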

How the data were processed

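RNA was measured in 6 foreguts, each from 1 embryo. Poly(A) RNA was copied and amplified with SMART-Seq v4 and tagged with Nextera XT, per the labels, and neither kit marks strand. The authors aligned reads to mm10 within the CSBB pipeline (aligner, quantifier and gene models: not given in the sources used here) and deposited TPM values. TPM falls for all genes when a few abundant features rise. The methods name RUVSeq, which needs counts, so log2(TPM + 1) was compared, for genes whose mean TPM was 1 or more, with limma 3.58.1 in R 4.3.3 (mean-variance trend, two-sided, Benjamini-Hochberg over all genes tested), which was tested on simulated data. The pseudocount of 1 shrinks the differences of low genes. Calls used the limits of the methods, an adjusted p up to 0.1 with a log2 difference of 1 or more in size. For a single gene, 0.1 is the smallest p an exact test of 3 against 3 allows.

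Genotypes and somite numbers came from the labels. The members and gene lists were chosen with earlier results of these data known. Genes named were the 10 members, for each list its called genes and up to 4 others of highest mean, with further list members chosen after their values were seen, the 8 genes most like the members and the Hedgehog genes. Deviations of same-numbered libraries from their group means correlated at 0.67, 0.37 and 0.15, so the numbers were taken as paired for the replicate block. What a number stands for is not given in the labels. Positions come from the GENCODE M21 annotation (GRCm38) and upstream sequences from RefSeq. A gene that the naming rule covers is not reported here. Alternatives were other pseudocounts, filters, scalings, thresholds and covariates, the block, and leaving out libraries.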

Additional observations from a re-analysis of the deposited data

How the results depend on the processing

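No alternative called any of the 10 genes by genotype. With the replicate block, limma called 30 genes in all by genotype instead of 6, none of the 10. The count over all genes was 27 with somite number as a covariate, 16 when rescaled without features named by an accession, 11 after quantile normalization, 3 without a filter, 1 with a mean of at least 5 TPM, 3 at an adjusted p of 0.05, and 0 to 5 when libraries were left out (1 at a time, or control 3 with mutant 2). The genotype difference of Alb, near 0, changed sign with a pseudocount of 0.1 (-0.51), median-of-ratios scaling (-0.072), quantile normalization (-0.065) and rescaling without accession-named features (-0.10), and that of Apoa1 with somite number as a covariate (-0.062). Leaving out libraries moved it from -2.15 to 1.02 for Afp, -1.02 to 0.84 for Alb, -2.14 to 0.50 for Ttr, -0.35 to 0.93 for Apoa1, -0.14 to 1.10 for Apoa2, -0.060 to 0.78 for Apom, -2.14 to 0.22 for Ambp and -2.38 to 0.24 for Rbp4, so the sign of these differences rests on single embryos. Apob stayed below 0 and Trf above 0 in every alternative run.

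By somite number, the 10 genes gave 0 calls with a pseudocount of 5 (627 over all genes), with a linear term (19 over all genes), without a filter, with a mean of at least 5 TPM (4 of the 10 tested) or at an adjusted p of 0.05, and 2 calls when rescaled without accession-named features, which added Trf. Leaving out libraries gave 0 to 4 calls, 11 to 1690 over all genes, and differences from -0.64 to 3.71 for Afp, -3.07 to 0.20 for Ttr, -0.090 to 1.57 for Apoa2, -0.41 to 0.11 for Apob, -0.87 to 0.10 for Apom and -2.01 to 1.13 for Ambp. With a pseudocount of 5 the ratio was wide for 4 of the 10 genes in each genotype (1.1% of all genes in controls, 1.25% in mutants). With a mean of at least 5 TPM it was wide for 4 of the 4 genes tested in each (3.34% and 3.35%). A pseudocount of 0.1 gave 8 of the 10 in controls and 7 in mutants (9.15% and 7.85%). Rescaling without accession-named features gave 8 and 6 (4.09% and 3.92%). Leaving out libraries gave 3 to 7 in controls and 2 to 6 in mutants. The causes of these shifts were not tested, beyond fewer libraries or genes where those were left out.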
